A study of Homo sapiens with 8 samples.

Results

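The WT NOP2/NSUN1 peak list holds the RNA regions recovered with FLAG-tagged WT NOP2 over size-matched input (SMInput), the RNA from the same part of the membrane taken before the FLAG immunoprecipitation (IP). All 251 rows of that list were taken, of 538 rows in the WT and C459A lists together, and the C459A list played no part in the choice. FLAG-tagged NOP2 was expressed for 40 h from a transfected plasmid in HEK293T, an established line of human embryonic kidney origin. The WT list rests on 4 of the 8 libraries, 2 biological replicates of the WT IP and 2 of its SMInput. Both constructs were expressed from a plasmid, the cells were not UV crosslinked, and no IP from cells with the empty vector was sequenced. The other 4 libraries are the IP and SMInput of C459A, a mutant that stays covalently joined to the RNA it acts on.

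NOP2 (also NSUN1) is a nucleolar RNA methyltransferase that places 5-methylcytosine on the large-subunit rRNA and takes part in ribosome assembly. In human cells 1 long precursor, the pre-rRNA, carries 18S, 5.8S and 28S rRNA between spacers that are cut away: the 5′ETS and 3′ETS at its ends and ITS1 and ITS2 inside. Small nucleolar RNAs (snoRNAs) of the box C/D kind guide 2′-O-methylation of rRNA, and a few of them, such as U3 and U8, are needed for the cleavage of the pre-rRNA, while those of the H/ACA kind guide pseudouridylation.

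Each row gives a region on a reference sequence, the enrichment of the IP relative to SMInput as a log2 fold change, and an adjusted p, both values from the authors' peak caller and both made from the 2 replicates together. The rows therefore carry no spread between replicates, and no test was made between rows or classes. The files hold no read counts, so depth is unknown. The log2 fold changes ran from 1.04 to 8.55 with a median of 3.44, and the largest adjusted p was 0.0471. The 3 rows nearest to that limit were tRNA-Asn-GTT-2-2 (0.0471), SNORD48 (0.0453) and MT-TF (0.045), and the 3 smallest log2 fold changes, 1.04, 1.07 and 1.09, were all on 28S or 45S rRNA. Of the 251 rows, 188 lay on references for single RNAs or repeat families and 63 on chromosomes or unplaced sequence.

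The sequences that recur in the results are shown here. The first set are 4 box C/D snoRNAs, U3, U14B and SNORD2 for their fold change or adjusted p and U8 for its role in pre-rRNA cleavage, with the first TGATGA (the C box core) and the last CTGA (the D box) in capitals. U3 is read from hg38 chr17:19188016-19188232 (plus strand), U8 from chr17:8173454-8173587 (minus), U14B from chr11:17075779-17075868 (minus) and SNORD2 from chr3:186784796-186784864 (plus). SNORD2 has no exact TGATGA.
SNORD3A (U3): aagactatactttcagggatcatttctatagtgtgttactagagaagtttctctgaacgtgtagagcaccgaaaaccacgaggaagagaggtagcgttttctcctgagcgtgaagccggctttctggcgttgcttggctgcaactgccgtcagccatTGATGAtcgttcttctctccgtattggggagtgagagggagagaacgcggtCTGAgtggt
SNORD118 (U8): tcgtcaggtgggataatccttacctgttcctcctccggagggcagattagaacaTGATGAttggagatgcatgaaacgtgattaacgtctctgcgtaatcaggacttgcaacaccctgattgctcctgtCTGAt
SNORD14B (U14): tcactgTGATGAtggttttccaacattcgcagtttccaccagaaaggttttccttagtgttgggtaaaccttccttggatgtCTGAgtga
SNORD2: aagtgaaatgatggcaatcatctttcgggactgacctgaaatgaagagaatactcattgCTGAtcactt

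The second set shows where the peaks lay on RNAs that were covered only in part. For the arginine tRNAs, read from hg38 chr15:89335073-89335145 and chr17:75035113-75035185 (plus strand), the capitals are the bases inside the peak listed on the chromosome. For SNORD12C (chr20:49278940-49279028, plus strand) they are the bases inside the peak.
tRNA-Arg-TCG-1-1: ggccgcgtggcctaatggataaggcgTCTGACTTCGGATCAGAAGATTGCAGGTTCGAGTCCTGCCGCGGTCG
tRNA-Arg-TCG-3-1: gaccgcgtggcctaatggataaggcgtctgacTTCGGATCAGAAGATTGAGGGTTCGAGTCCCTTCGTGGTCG
SNORD12C: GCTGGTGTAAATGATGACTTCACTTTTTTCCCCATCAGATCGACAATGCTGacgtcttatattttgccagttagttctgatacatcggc

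By rows, box C/D snoRNAs and rRNA were the largest classes. A count of rows is not an amount of RNA recovered. The paper states that rRNA took up most of the WT reads, with box C/D snoRNAs next. Box C/D snoRNAs held 58 rows, 23.1% of the list (exact 95% binomial interval 18.04 to 28.8%, which covers the counting of rows only), from 49 snoRNAs. References and assembly copies of 45S, 28S and 5S rRNA held 57 rows (22.7%, 17.7 to 28.4%) under only 11 names, and 5S pseudogenes, the scattered partial copies of the 5S rRNA gene, held 38 (15.1%, 10.9 to 20.2%) under 36. The 57 leave out these pseudogene rows and the chromosome peaks that matched 45S, described below. Nuclear tRNAs held 26 rows (10.4%, 6.88 to 14.8%) from 23 tRNAs and families of L1, the long interspersed retrotransposon, held 21 (8.37%, 5.25 to 12.5%). A further 32 rows lay on chromosomes inside a gene of another kind (10), antisense to a gene (9) or between genes (13). The remaining classes were mitochondrial rRNA (6), mitochondrial tRNA (4), other repeats (4), pseudogenes of 7SL or U6 (3), a 5.8S pseudogene (1) and an H/ACA snoRNA (1).

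**Figure D1:**
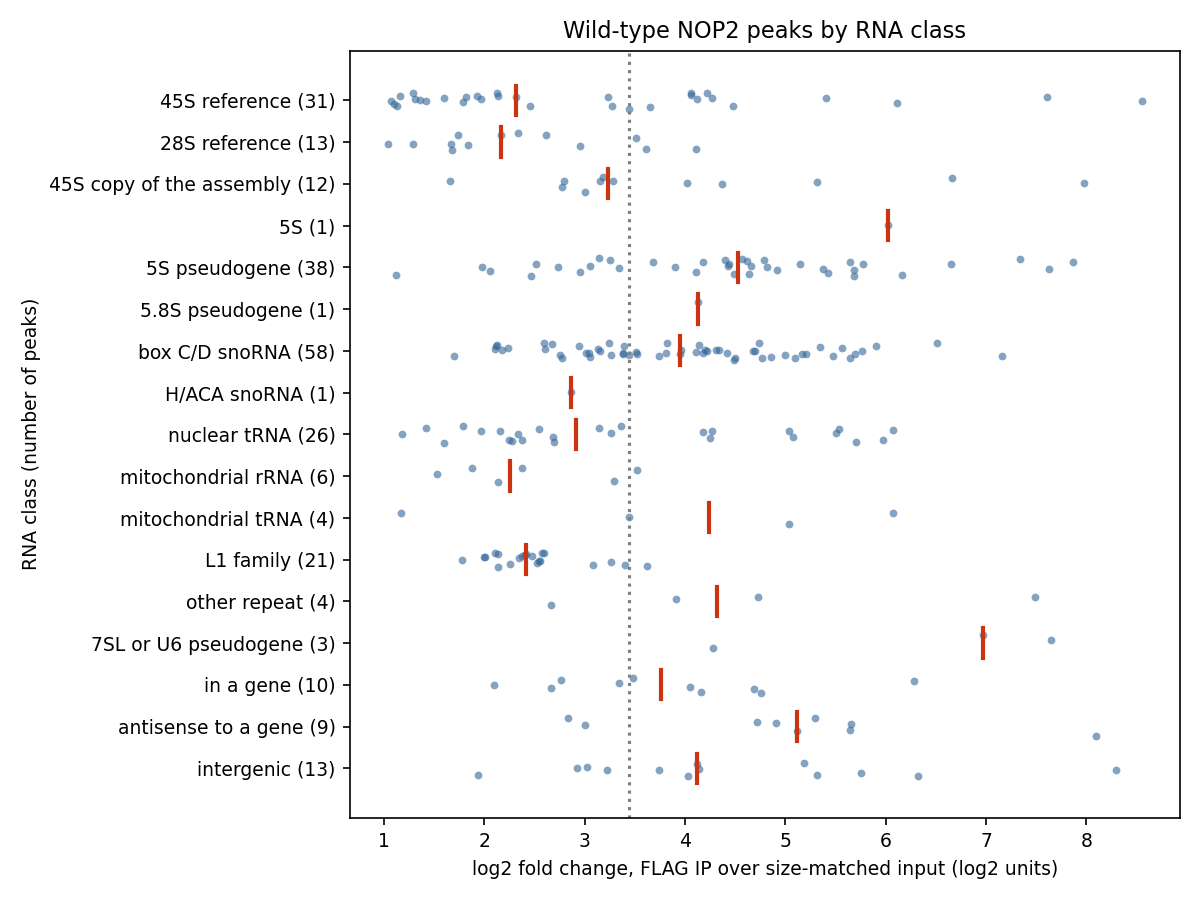
Log2 fold change of IP over SMInput (x axis, log2 units) of each of the 251 WT peaks by RNA class (y axis, number of peaks in parentheses). Each point is 1 peak, the red bar is the class median and the dotted line the median of the list, 3.44; the 45S references spread from 1.07 to 8.55 while the 21 L1 peaks sit between 1.78 and 3.62.

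The classes differed in level. The median log2 fold change was 4.53 for the 38 5S pseudogene rows, 3.95 for box C/D snoRNAs, 2.92 for nuclear tRNAs, 2.41 for L1 and 2.32 for the 31 rows on 45S references. Above the list median of 3.44 lay 27 of the 38 5S pseudogene rows, 35 of the 58 box C/D rows, 11 of the 31 45S rows and 1 of the 21 L1 rows. The strongest folds and the smallest adjusted p were mostly different rows, with 3 shared between the top 20 of each. The 20 rows with the smallest adjusted p had a median length of 194.5 bases and 8 of them lay on 45S references, whereas the 20 largest folds had a median length of 59.0 bases and came from 45S references (3 rows) and 9 other classes. Over all 251 rows, Spearman's rho between peak length and log2 fold change was -0.50, given as a description because the rows share the same libraries and in part the same sequence.

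On the pre-rRNA the largest enrichments lay in the second part of the 5′ETS. The 45S references are 4 copies of the gene, RNA45SN1, RNA45SN2 and RNA45SN3 on hg38 chr21 (8433222 to 8446572, 8205988 to 8219302 and 8389035 to 8402343) and RNA45SN4 on the unplaced contig KI270733.1 (122273 to 135645). The copies are nearly identical, so rows on different copies are not independent, and to which copy a read was assigned cannot be checked in these files. Positions below were carried to RNA45SN1, counted from its first base, by aligning the copies. By their midpoints 18 of the 31 rows fell in the 5′ETS (bases 1 to 3654), 4 in ITS1, 7 in ITS2, 1 in 28S and 1 in the 3′ETS. The regions differ in length. Per kilobase of the region, the rows numbered 4.926 in the 5′ETS, 3.714 in ITS1, 5.998 in ITS2, 0.197 in 28S and 2.770 in the 3′ETS. By number for its length, the 5′ETS therefore did not exceed ITS2, and these rates were not tested.

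Within the 5′ETS, the 5 rows with a midpoint up to base 2000 had log2 fold changes of 1.13 to 3.65 with a median of 1.82, and the 13 rows past it had 2.14 to 8.55 with a median of 4.12. This division was chosen after the values were seen. Place and copy were partly mixed, since the earlier rows were all on RNA45SN1 or RNA45SN2 and the RNA45SN3 rows of the 5′ETS were all later ones. On RNA45SN1 alone the values were 1.13 to 3.23 up to base 2000 and 2.14 to 4.06 past it. On RNA45SN2 the earlier row had 3.65 and the later ones 3.27 to 4.26. The strongest row of the list was a peak at bases 2579 to 2881 of RNA45SN3, with a log2 fold change of 8.55 and the smallest adjusted p of all, 4.56e-32. Among the 45S references the same copy also had the next strongest peaks, at bases 3113 to 3248 (7.61) and 3245 to 3335 (6.11). The rows of the other copies that overlapped the strongest peak in part had lower values. They were 4.48 at bases 2370 to 2657 of RNA45SN4, 4.26 at 2357 to 2753 and 4.06 at 2802 to 3116 of RNA45SN2, and 3.44 at 2298 to 2780 of RNA45SN1, and shared 79 to 202 of its 311 aligned positions. By copy, the medians over all 45S rows were 1.38 for RNA45SN1 (12 rows), 3.27 for RNA45SN2 (7 rows), 5.75 for RNA45SN3 (6 rows) and 3.29 for RNA45SN4 (6 rows), and the rows of each copy lay at different places.

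On the references the inner spacers were lower. The 4 ITS1 rows ran from 1.60 to 2.45, and 6 of the 7 ITS2 rows ran from 1.07 to 1.97. The exception in ITS2 was bases 6726 to 6977 of RNA45SN4, which took in the last 35 bases of 5.8S, at 4.22 (adjusted p from the peak caller 1.04e-16). The 3′ETS row had 1.29. The 12 rows on the assembly's own copies of the gene lay at chr21, within RNA45SN2, and on KI270733.1, within RNA45SN4. They therefore fall on gene copies that also serve as references and are not further copies. These rows were shorter, with a median length of 221 bases against 315, and had a median log2 fold change of 3.23. In the 5′ETS, 2 of them had the largest folds, 7.98 at chr21:8209410-8209550 and 6.66 at KI270733.1 124666 to 124863 (adjusted p 1e-25). The 3 ITS1 rows among the 12, at 127894 to 128099 (4.37, adjusted p 1.82e-09), 128717 to 128953 (4.01, 1.39e-10) and 128420 to 128655 (3.01), were all above the ITS1 rows of the references. Each lay inside a row on the RNA45SN4 reference, which had 2.45, 2.12 and 1.60 in the same order.

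No row on a 45S reference had its midpoint in 18S, and those that overlapped its first bases came from the 5′ETS side. The 1 placed peak wholly inside 18S was an intergenic chr21 row that matched bases 3926 to 4037 of RNA45SN1 (3.02, adjusted p 0.0438). When the 45S and 28S references, the assembly copies and the 18 other chromosome peaks described below were placed together, 74 peaks covered 64.2% of the 13351 bases of RNA45SN1. The longest stretch with no peak was bases 4038 to 5558, which is the rest of 18S past its first part and the start of ITS1. The next were bases 1278 to 2412 and 4002 to 4647 of 28S. The last of these takes in the cytosine known as the methylation target of NOP2. Peaks that matched 45S only in part were not placed, and among them Mir6087 (4.16) matched bases 4095 to 4141 of 28S, inside this stretch. The peak antisense to ERCC1 matched inside the 1278 to 2412 stretch, over 16 bases only. RBM10 (17 bases) and the peak antisense to SEC14L1 (47 bases) reached the edges of the 4002 to 4647 stretch. On the C459A list a 28S row at bases 3193 to 3574 of RNA45SN1 had a log2 fold change of 1.05 and one at bases 4251 to 4572 had 3.65. On the WT list the first region had a row (3193 to 3606, 1.84) and the second had none. The difference was not tested.

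The deepest point of the placed peaks was in the 5′ETS, where 6 peaks covered bases 2537 to 2575 and 2579 to 2591 of RNA45SN1. The first is shown here as the longer of these runs (hg38 chr21:8435758-8435796, plus strand).
Most covered stretch: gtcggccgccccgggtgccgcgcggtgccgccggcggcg

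The placed pre-rRNA peaks had a median GC content of 80.4% (53.4 to 96.1%), beside 72.5% for the whole precursor, 56.1% for 18S and 69.4% for 28S. The spacers were themselves near the value of the peaks, with 79.2% in the 5′ETS, 79.9% in ITS1, 83.1% in ITS2 and 83.9% in the 3′ETS. The part of base composition in which peaks were listed was not tested.

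**Figure D2:**
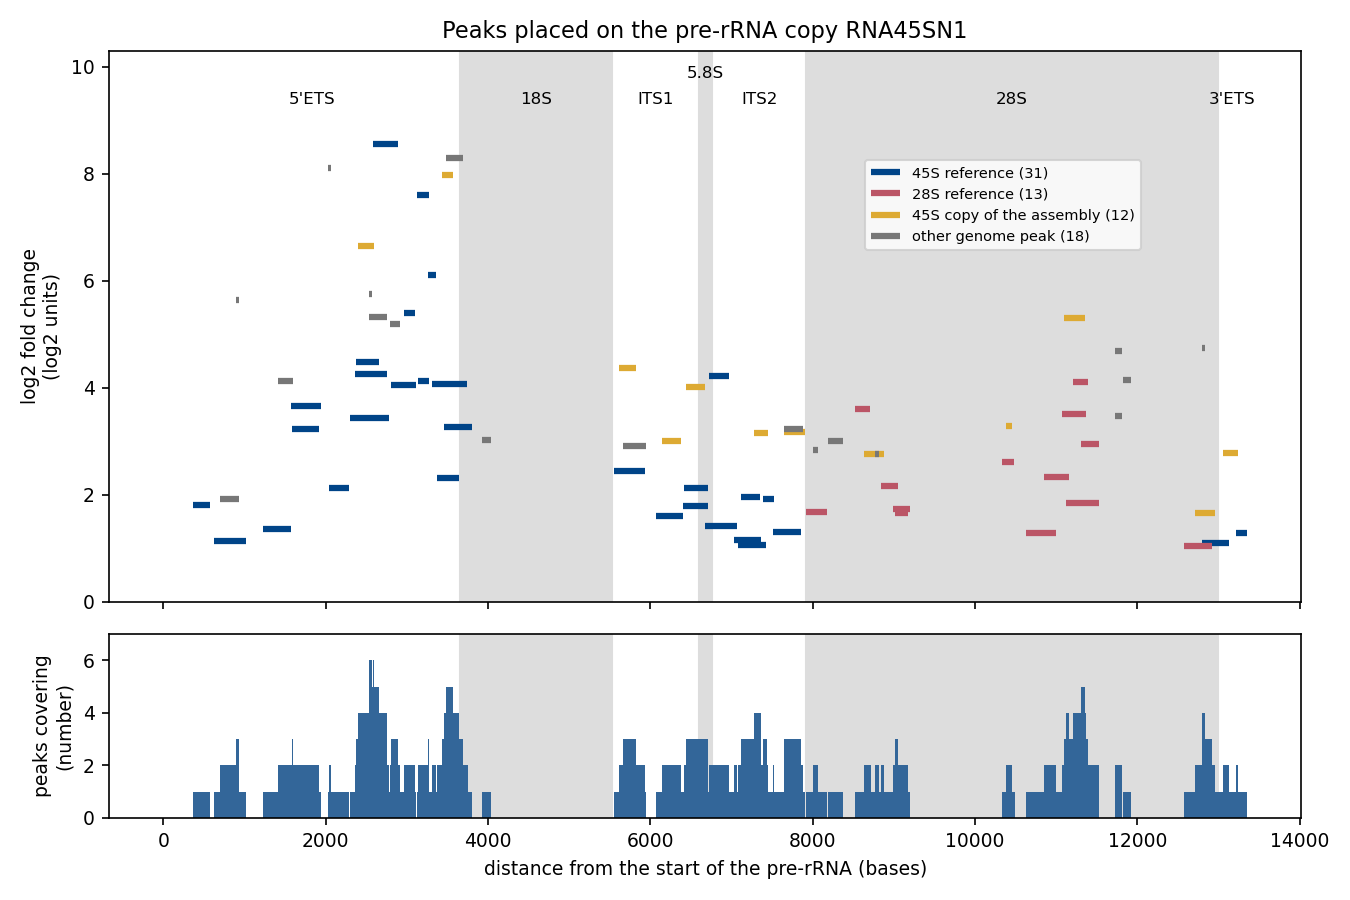
Upper panel: log2 fold change (y axis, log2 units) of 74 peaks against their place on RNA45SN1 (x axis, bases from its start), each bar spanning the peak and coloured by reference. Lower panel: number of peaks covering each base; grey bands are 18S, 5.8S and 28S, and the highest count is 6, in the 5′ETS.

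The rows on mature 28S covered it in part. On the 28S references, 13 rows had log2 fold changes of 1.04 to 4.11 with a median of 2.16. The highest were bases 3284 to 3467 (4.11, adjusted p 3.2e-17), 598 to 789 (3.61, 1.51e-14) and 3147 to 3439 (3.51, 6.23e-14), in the numbering of the RNA45SN1 28S. A peak on the assembly copy at 3174 to 3429 had 5.31, so of the reference and assembly rows those between base 3147 and base 3606 held the highest 28S value of 3 of the 4 copies. The other reference rows lay near the 5′ end (1 to 250, 1.67), from 917 to 1277 (1.66 to 2.16), from 2413 to 2563 (2.61), at 2705 to 3079 (1.29) and 2933 to 3234 (2.34), the latter overlapping the rows from 3147 on, and near the 3′ end (4648 to 4994, 1.04).

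Box C/D snoRNAs were the most varied class, with 49 RNAs listed. U3, the snoRNA that base pairs with the 5′ETS and is needed for the early cleavages toward 18S rRNA, is present in several gene copies, of which 5 were listed. SNORD3A had a log2 fold change of 4.33 over its whole transcript (adjusted p 1.43e-21, the smallest of any snoRNA) and 5.90 on chr17. SNORD3B-1 had 4.11 over its whole transcript. The other copies had partial peaks, at bases 1 to 136 of SNORD3C (2.60), 57 to 218 of SNORD3D (1.70) and 1 to 32 of SNORD3E (5.64, adjusted p 0.0401). The copies are near identical, so how reads were divided among them cannot be checked.

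The other RNAs grouped here under pre-rRNA processing were listed too. The exceptions were the H/ACA snoRNA U17 and the RNA of RNase MRP, which had no row. Being in the group does not mean that a role in cleavage is established for each RNA, U13 included. U8, needed for 5.8S and 28S maturation, had 3.24 over the transcript (SNORD118), 2.23 on a second reference named U8 and 4.30 on chr17 over its first 57 bases. U13 (SNORD13), which pairs with the pre-18S region, had 3.26 on its transcript and 4.20 on its chromosome. U14, needed for 18S processing, is made from 5 gene copies, of which 4 were listed: SNORD14B (5.10, adjusted p 4.02e-14), SNORD14E (3.95), SNORD14C (3.39) and SNORD14A (2.75). U22 (SNORD22), also of 18S processing, had 2.10. Of the abundant small RNAs outside this group, none had a row under its own name. They were 7SL, 7SK, U1, U2, U4, U5, U6, U11, U12, RNase P RNA, Y RNA, vault RNA, telomerase RNA and 24 RNAs of Cajal bodies. The 1 H/ACA snoRNA was SNORA48 (2.86).

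Among the snoRNAs that guide methylation, the highest were SNORD15B (7.16 on chr11), SNORD2 (6.51, adjusted p 6.48e-11), SNORD18A (5.76 on chr15), SNORD38B (5.70), SNORD42B (5.57) and SNORD18C (5.47). SNORD3D, at 1.70, was the only box C/D row under a log2 fold change of 2. The lowest of the others were SNORD22 (2.10), SNORD33 (2.11), SNORD45C (2.13) and SNORD32A (2.18). Peaks spanned the mature RNA in most cases. Of 49 snoRNA rows on transcripts with a known length, 43 (87.8%) covered at least 90% of it and 39 started at base 1. Besides the 3 U3 copies, the partial peaks were SNORD12C (bases 1 to 51 of 89, 4.76), SNORD38B (1 to 49 of 67) and SNORD46 (2 to 89 of 104, 4.67), each leaving out the 3′ end. The exact C box core TGATGA was present in 30 of 45 listed SNORD transcripts (66.7%) and in 73.8% of all 313 SNORD transcripts of GENCODE, and the D box CTGA was in all 45 and in 96.8%. Both motifs were searched on the RNA strand only and do not overlap, and the lists share 45 members.

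**Figure D3:**
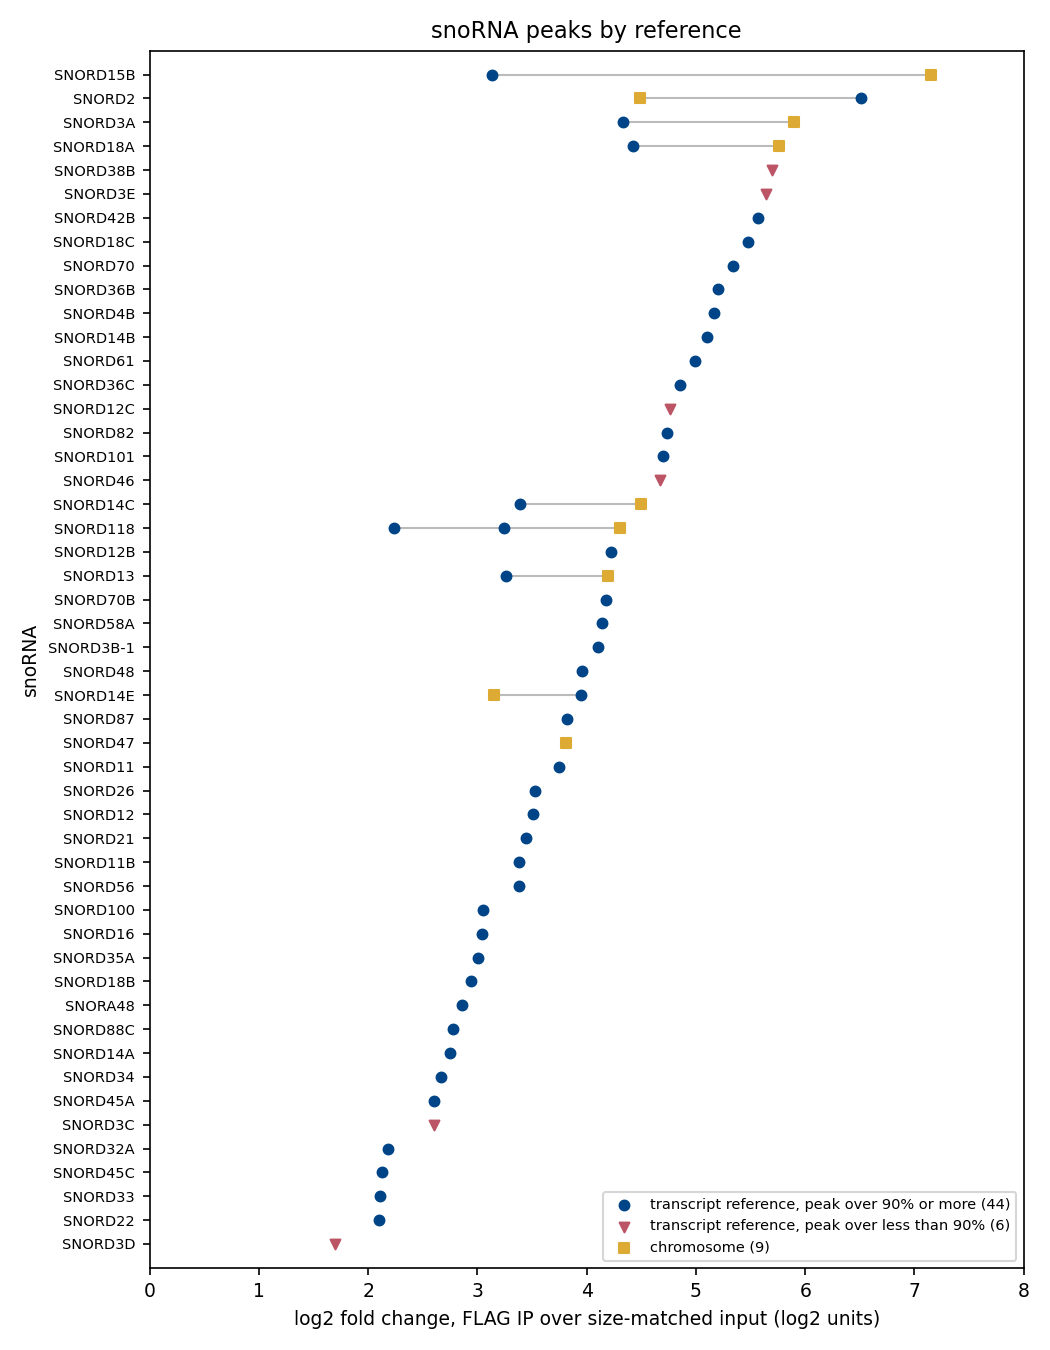
Log2 fold change (x axis, log2 units) of every snoRNA row (y axis, snoRNA), by reference: circles are transcript references covered to 90% or more (44, with the reference U8), triangles those covered less (6) and squares chromosomes (9). Grey lines join the rows of 1 snoRNA; SNORD15B has the widest gap, 3.13 to 7.16.

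Ribosomal protein genes were hosts of 21 listed snoRNAs in 10 genes. GENCODE places 40 SNORD genes, by symbol, inside ribosomal protein genes, of which these 21 (52.5%) were listed, beside 48 of all 295 SNORD symbols (16.3%) and 27 of the 255 with another host or none (10.6%). Which of the 295 are expressed in these cells, and how strongly, was not examined. No preference for snoRNAs of ribosomal protein genes can therefore be read from these shares. Hosts with at least 2 annotated SNORDs held 75.0% of the listed symbols and 74.6% of all. By GENCODE, 44 of the 49 lay inside a gene on the same strand, in 25 host genes, and 12 of these hosts held at least 2 listed snoRNAs. Host here means only a gene that spans the snoRNA, such as TMEM107 for U8 and TEX11 for SNORD3E. It does not show that the snoRNA is made from that gene. These 12 hosts, chosen for holding listed snoRNAs, gave 31 of the 43 annotated in them. All 4 of NOP58, which encodes a core protein of box C/D particles, were listed: SNORD70 (5.34), SNORD70B (4.18), SNORD11 (3.74) and SNORD11B (3.38). On their transcripts, all 4 of the ribosomal protein gene RPL13A were listed at 2.11 to 3.01, all 4 of RPL4 at 2.94 to 5.47 and all 3 of the long noncoding RNA ZFAS1 at 3.51 to 4.76. SNORD18A of RPL4 also had a row on chr15, at 5.76. From SNHG1, another noncoding host, 2 of 6 were listed. NCL (nucleolin) held SNORD82 (4.73) and NOP56, the partner of NOP58 in the particle, held SNORD56 (3.38).

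The 5S rRNA itself had 1 row, at bases 2 to 98 at 6.02 on the log2 scale (adjusted p 2.71e-09). The 38 pseudogene rows came from 36 pseudogenes. The highest folds were RNA5SP221 (7.87), RNA5SP325 (7.63) and RNA5SP56 (7.34), and the smallest adjusted p-values RNA5SP161 (5.62e-17, with 5.78), RNA5SP141 (1.34e-15, 4.18) and RNA5SP199 (9.66e-13, 6.16). The lowest was RNA5SP389 (1.12). Aligned to 5S, the peaks were 91.2 to 100% identical with it over the aligned bases, with a median of 97.6%. Whether the reads came from the pseudogenes or from 5S rRNA therefore cannot be told apart here.

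All 38 pseudogene peaks covered bases 52 to 79 of 5S, at least 75% of them covered bases 42 to 89, and at least 50% covered bases 28 to 90. The alignment ended between bases 86 and 90 in 34 of the 38, also where the peak ran on, since the pseudogene sequence past that point did not align to 5S. On the 36 pseudogene transcripts, 14 peaks began at base 1 and 22 began inside, at bases 11 to 52. The 14 had a median log2 fold change of 3.20 (1.12 to 6.16) and a median length of 103 bases, and the 22 had 4.86 (2.06 to 7.87) and 55 bases. The ranges overlap.

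**Figure D4:**
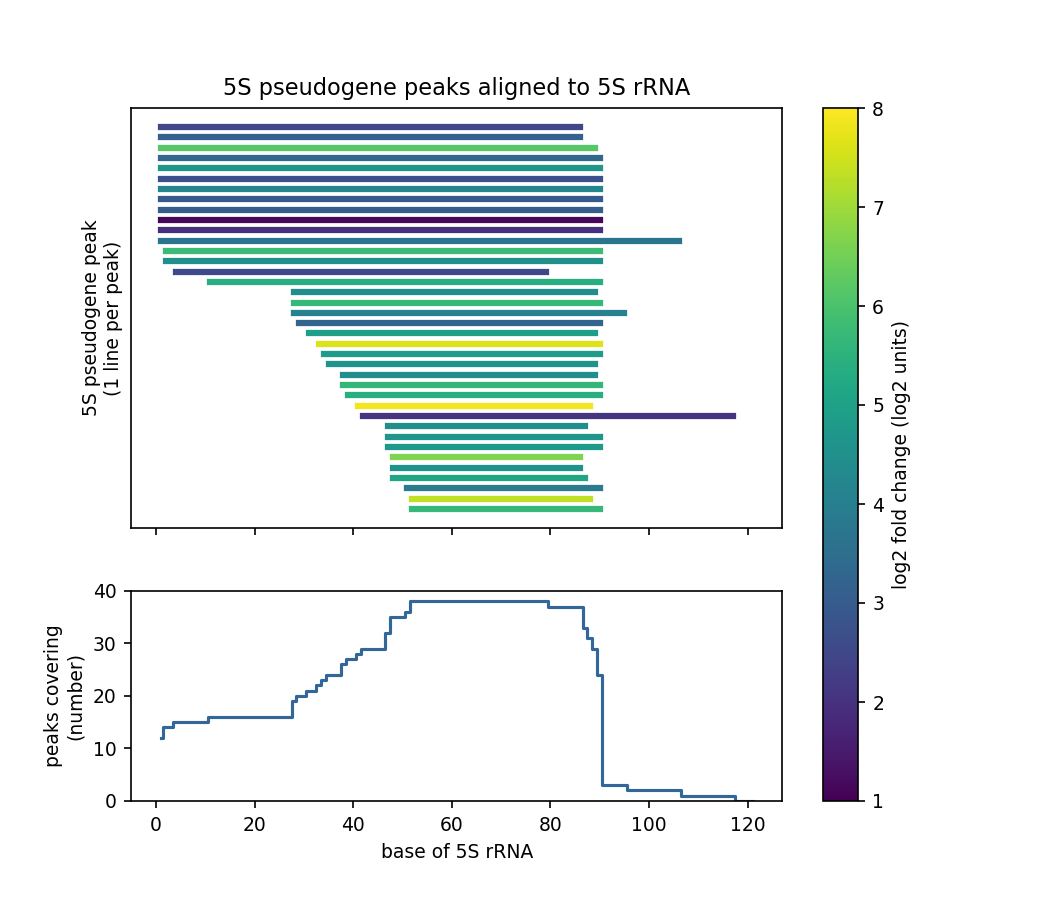
Upper panel: the 38 pseudogene peaks (1 line each, coloured by log2 fold change) against the bases of 5S rRNA they align to (x axis). Lower panel: number of peaks covering each base of 5S, which is 38 from base 52 to 79 and 3 just past base 90.

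The 26 nuclear tRNA rows came from 23 tRNAs that decode 8 amino acids. Of the rows, 11 were on arginine tRNAs with the anticodons TCG or CCG, from 8 of the 23 tRNAs. The share of such tRNAs among all tRNA references was not counted, so no preference for arginine tRNAs can be read from this. The arginine rows had a median log2 fold change of 3.14 (2.27 to 5.97). The highest were tRNA-Arg-TCG-3-1 (5.97, adjusted p 1.19e-13), tRNA-Arg-CCG-1-3 (5.70) and tRNA-Arg-CCG-1-2 (5.53, adjusted p 4.6e-13). The 5 phenylalanine tRNAs (anticodon GAA) ran from 1.60 to 5.07, the 3 lysine tRNAs (TTT) from 2.24 to 5.50 and the 3 glycine tRNAs (TCC) from 1.18 to 1.79. tRNA-Leu-CAG-1-2 had the highest fold of the class, 6.08 (adjusted p 0.0161).

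The peaks lay toward the 3′ side of the tRNA. The tRNA references run past the mature tRNA by an amount that the sources used here do not give, and the listed ends reach up to 23 bases past the tRNA length, so positions are given as listed. The reference was taken as the tRNA length plus 23 bases. For the 2 peaks on chromosomes, whose tRNAs are also counted on their references, the tRNA length alone was taken. On these scales the midpoint of 23 of 25 peaks, or 92.0%, fell past the middle, and 17 of 25 (68.0%) lay wholly past the first 33.3%. The 3 glycine peaks, counted among the 23, spanned the whole reference (1 or 2 to 95), and without them it was 20 of 22 (90.9%). The exceptions on the 5′ side were tRNA-Leu-CAG-1-2 (11 to 47) and tRNA-Pro-AGG-1-1 (11 to 48, 2.16). A short form recurred at bases 45 to 84, seen in tRNA-Arg-CCG-1-2, tRNA-Arg-CCG-1-3 and tRNA-Lys-TTT-3-2. The 10 peaks of 37 to 42 bases had a median log2 fold change of 5.05, and the 13 longer ones 2.34. The gene coordinates of 2 tRNAs place the peak without that doubt. For tRNA-Arg-TCG-1-1 the chr15 peak ran from base 27 to 7 bases past the 3′ end (4.18, adjusted p 1.92e-11), and for tRNA-Arg-TCG-3-1 the chr17 peak ran from base 33 to 6 bases past it (3.36), both from the anticodon arm through the T arm, as in the capitals of the sequences printed earlier.

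**Figure D5:**
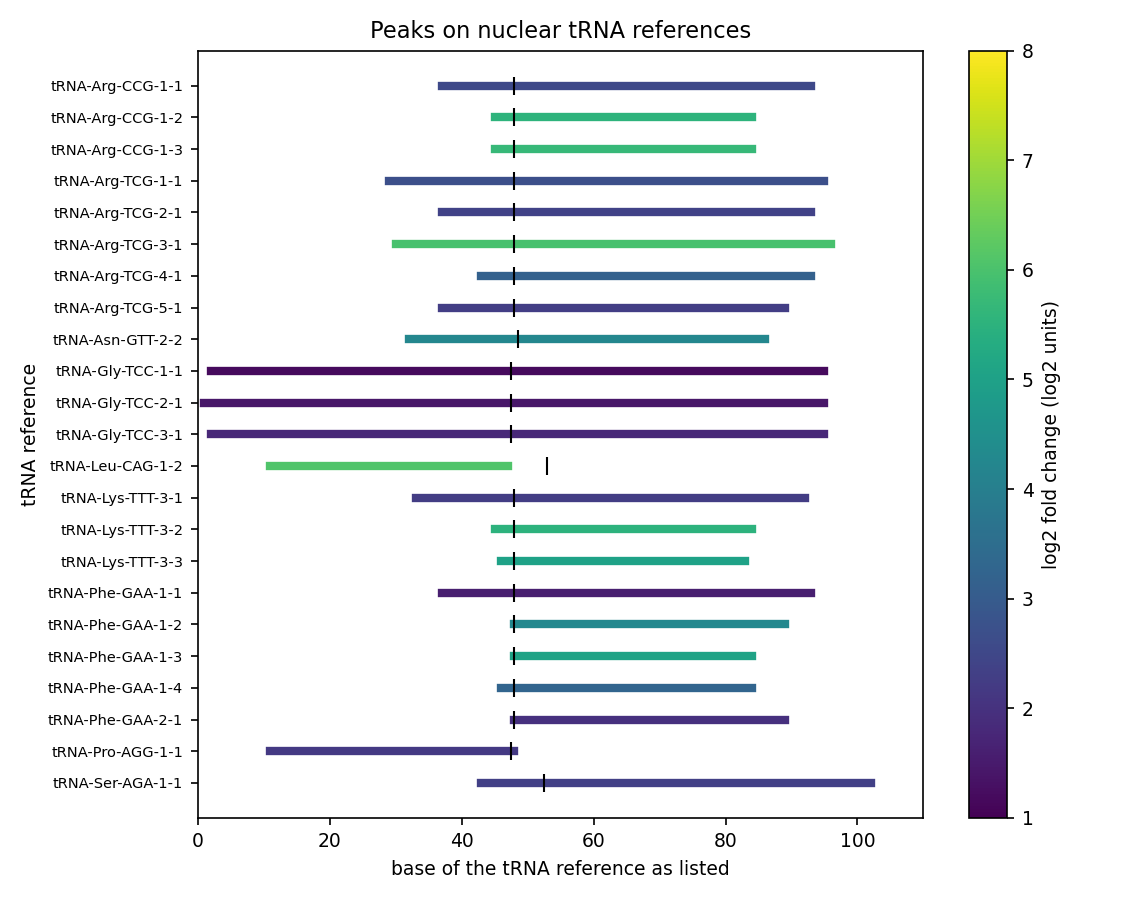
Peaks on 23 tRNA references (y axis) by their bases as listed (x axis), coloured by log2 fold change. The vertical tick is the middle of the reference taken as the tRNA length plus 23 bases; 21 of the 23 bars have their midpoint to the right of it, and the leucine and proline bars lie to the left.

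The mitochondrial RNAs gave 10 rows. The mitochondrial leucine tRNA MT-TL1 was the most enriched, at 6.07 over its whole transcript (adjusted p 1.73e-17) and 5.03 on the mitochondrial genome, where the peak ran from 10 bases before the tRNA to 33 bases past it (adjusted p 1.43e-21). Its sequence, hg38 chrM:3230-3304, is shown because it was the strongest RNA of the organelle.
MT-TL1: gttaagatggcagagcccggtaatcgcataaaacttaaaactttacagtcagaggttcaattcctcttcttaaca

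Of the 22 mitochondrial tRNAs, 3 were listed, with MT-TW at 3.44 and MT-TF at 1.16. The 2 rows on the small rRNA MT-RNR1 had 2.37 and 3.29, at bases up to 244 and at 432 to 814 of the gene. The 4 rows on the large rRNA MT-RNR2 had 1.52 to 3.52, the highest at bases 107 to 298, and none lay past base 961 of its 1559.

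The L1 rows were even in level. All 21 were on the plus strand of the consensus, with log2 fold changes of 1.78 to 3.62, and all were long, 189 to 413 bases. The general L1 reference held 8 rows between bases 1624 and 5403 (up to 3.09), L1PREC1 held 5 (2.01 to 3.40) and L1HS, the family that is still active in humans, held 4 (1.78 to 3.26). The highest were L1PA2 (bases 74 to 292, 3.62), L1PREC1 (5399 to 5696, 3.40, adjusted p 0.000129) and L1HS (2905 to 3123, 3.26), and L1PA2, L1PA3 and L1PA6 each had 1 row, all within the first 321 bases. The other repeats were a poly(A) repeat (7.48), PRIMA4_I (4.73), an AAC repeat (3.90) and an AG repeat (2.66). RN7SL862P (7.64), RNU6-826P (6.97) and RN7SL664P (4.28) are pseudogenes of 7SL and U6 with peaks of 31 to 35 bases, and RNA5-8SP6, a 5.8S pseudogene, had 4.13.

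Many of the 32 rows in genes, antisense to genes or between genes carried rRNA sequence. Compared in the sense of the RNA, 18 matched a 45S copy and 2 matched 5S, each over at least 90% of the peak at 90% identity or more. A further 7 matched 45S in part. The peaks inside AAMDC (4.69, adjusted p 9.42e-05) and the ryanodine receptor gene RYR2 (3.48) both matched the same stretch of 28S, 87 of 89 and 82 of 84 bases, at hg38 chr11:77886574-77886662 and chr1:237603154-237603237 (plus strand). They are shown because a peak named for a gene held rRNA sequence over its whole length.
AAMDC: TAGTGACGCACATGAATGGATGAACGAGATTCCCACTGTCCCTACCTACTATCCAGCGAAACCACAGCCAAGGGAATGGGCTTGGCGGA
RYR2: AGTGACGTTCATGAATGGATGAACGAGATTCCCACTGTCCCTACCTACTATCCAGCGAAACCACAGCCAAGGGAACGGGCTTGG

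Other gene-named peaks that matched 28S were GCNT1 (4.75), VKORC1L1 (2.77), and the antisense peaks of DLG2 (3.00) and UNC45B (2.83), and Mir6087 (4.16) matched it over 87.0% of its length. SMAD9 (2.66) matched 5S. Both peaks antisense to LOC100996699 matched the 5′ETS (8.10 and 5.65). On KI270733.1, outside the annotated copy, 6 intergenic peaks matched 45S, the highest at the end of the 5′ETS (8.30). The most significant was at bases 2537 to 2761 of RNA45SN2 (5.32, adjusted p 1.47e-23), followed by those at 168773 to 168952 (4.12, 1.77e-16) and 175009 to 175240 (3.23, 7.02e-11). In order along the contig, the 6 matched successive parts of the pre-rRNA, from base 701 to base 7882 of RNA45SN1, at 98.9 to 99.6% identity. At these peaks the contig thus has the sequence and order of the pre-rRNA. A chr21 intergenic peak of 45 bases that matched the 5′ETS had 5.75. With these 18 rows counted as rRNA the rRNA share of the list rose from 22.7 to 29.9%. No match was found for the peaks antisense to C14orf132 (4.71) and ZACN (5.12), the chr4 intergenic peak (6.32) or TBCA (2.10), all of 18 to 22 bases. SORCS2 (3.35) and the peak antisense to SEC14L1 (5.65) matched 45S over part of their length, at 53 and 47 bases. BARHL1 (6.28), RBM10 (4.05) and the peaks antisense to ERCC1 (4.90) and QDPR (5.30) matched it over 17, 17, 16 and 20 bases only. Those short matches lay in peaks of 75.0 to 100% GC, and how often such matches arise by coincidence was not tested. An intergenic chr15 peak (4.03) matched the mitochondrial genome at bases 3290 to 3307, the 3′ end of MT-TL1, over 78.3% of its length. Whether reads from rRNA were placed at these positions was not tested.

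Apart from mitochondrial rRNA, for 13 RNAs the list held rows on a transcript or tRNA reference and on a chromosome. The 2 values differed by 0.67 to 4.03 on the log2 scale, with a median of 1.34, taking the lowest and highest where there were 3. The chromosome row was the higher for 8 of the 13 and had the larger adjusted p for 10. SNORD15B was the widest, at 3.13 over bases 1 to 145 of its transcript (adjusted p 1.8e-06) and 7.16 over its first 67 bases on chr11 (adjusted p 0.0109). SNORD2 went the other way, at 6.51 on its transcript and 4.49 on chr3. The SNORD2 row on chr3 and the RNA5SP161 row on chr4 had identical log2 fold changes (4.49) and adjusted p-values (0.0295).

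Of all 251 WT rows, 207 (82.5%) shared at least 1 base with a C459A row. By class, all 38 5S pseudogene rows, 53 of 58 box C/D rows, 28 of 31 rows on 45S references and 23 of 26 tRNA rows shared bases with one. So did 12 of 21 L1 rows, 5 of 10 rows in genes, 3 of 9 antisense rows and 1 of 4 other repeats. The 3 rows on 45S references without a shared base had log2 fold changes of at most 1.31. Chromosome rows of 45S sequence without one were high, the assembly row at chr21:8209410-8209550 (7.98), the KI270733.1 intergenic row (8.30), the peak antisense to LOC100996699 (8.10) and the chr21 intergenic row of 45 bases (5.75). Placed on RNA45SN1, however, each overlapped a reference row that did share bases with a C459A row (2043 to 2291, 2298 to 2780 or 3306 to 3748). For these rows, the lack of a shared base therefore does not show that the sequence was missing from the C459A list. The box C/D rows without one were SNORD48, SNORD11 and the chromosome rows of SNORD15B, SNORD18A and SNORD2, each with a row for the same RNA or an adjusted p above 0.03. Both lists hold only enriched peaks, so the difference was not tested.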

How the data were processed

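The libraries were made by miCLIP-sequencing, an IP of FLAG-tagged NOP2 after RNase T1 digestion with RNA cut from the membrane above the protein. By the methods and the submitters' processing notes, cutadapt removed adaptors, fastp put the molecular identifier into the read name, the alignment was to hg38 together with references for repetitive RNA families, and Peakachu called peaks from IP against SMInput. No source used here states the tool versions. For each enriched peak the authors deposited the log2 fold change (IP relative to SMInput) and the −log10 of the adjusted p-value, each with both replicates in 1 value. The adjusted p was computed back from it. The lists hold peaks with at least a 2-fold enrichment and an adjusted p under 0.05 only. A family-aware alignment assigns reads among near-identical sequences, so values of gene copies depend on it.

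Rows were classed by reference and annotation. The pre-rRNA copies and their parts came from RefSeq (GRCh38.p14), snoRNA and mitochondrial genes from GENCODE release 44 and sequences from hg38. The SNORD3A, SNORD3B-1 and SNORD3C lengths and the 5S sequence came from RefSeq coordinates. Copies were aligned with mafft 7.526. Peaks on chromosomes were compared with the pre-rRNA copies, 5S, the mitochondrial genome and snoRNAs and small nuclear RNAs of GENCODE by blastn 2.17.0 (word size 7, e-value limit 0.01, RNA strand, no low-complexity filter). Nuclear tRNAs were not compared. The placement was tested with simulated pieces of pre-rRNA that had 5% of their bases changed, and 200 of 200 returned to their place. Matches of sequence unrelated to rRNA were not tested. Python 3.11.15 with pandas 2.3.3, scipy 1.17.1 and pysam 0.24.0 was used.

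The members, lists and tests were chosen with earlier results of these data known. The RNAs named are, per class, the 3 rows of smallest adjusted p and the 3 of largest log2 fold change, and all RNAs on several references. Also named are all snoRNA peaks over less than 90% of the transcript and all rows of classes with up to 6 rows. The RNAs grouped under pre-rRNA processing, abundant small RNAs and snoRNA host genes complete the rule. Others, such as the lowest values, tRNA-Pro-AGG-1-1 and the gaps in coverage, were named after their values were seen. Alternatives were an adjusted p under 0.01, a fold change of at least 4, distinct names, and other ways to place or count peaks.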

Additional observations from a re-analysis of the deposited data

How the results depend on the processing

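No paired analysis was possible because the deposited values hold both replicates in 1 number, and for the same reason no replicate could be left out. Of the 53 alternative values computed, 44 stayed within the interval of the reported share or median or within 1.5 times the reported count. The 44 include values that could not move. Counting chromosome peaks that match 45S as rRNA cannot alter the shares of box C/D snoRNAs, L1 or the other non-rRNA classes compared. The intervals also take rows as independent, which rows on near-identical copies are not. The number 44 is therefore not a measure of how stable the results are. With a fold change of at least 4 the rRNA rows fell to 37 of the list and their share to 17.1%. Counting distinct names left 11 rRNA and 7 L1 names. Keeping 1 value per name, that of the row with the smallest adjusted p, gave medians of 4.26 for rRNA and 3.09 for L1. These are medians of selected rows: the row kept for the general L1 reference (3.09) was also its highest. They do not show a stronger enrichment of these classes. With chromosome peaks that match 45S counted as rRNA, the rRNA share was 29.9%. The share of tRNA peaks in the 3′ part was 68.0% when the whole peak had to lie past the first 33.3% of the reference, or of the tRNA for chromosome rows. With all placed peaks, 28S references included, the 5′ETS share was 37.8%, beside 58.1% on the 45S references, an alternative chosen after seeing the data. These changes follow from which rows each alternative counts. Depth is unknown, so an RNA with no row cannot be called unbound.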
